A study of Mus musculus with 6 samples.

Results

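Polyadenylated RNA of sorted lung alveolar macrophages was examined for 10 genes of fatty acid binding, triglyceride storage and lipolysis, chosen by symbol from the 46078 gene rows of the count table. They were Fabp1, Fabp4, Fabp5, Lpl, Plin2, Plin3, Cidec, Dgat1, Dgat2 and Pnpla2, and each matched 1 row. Alveolar macrophages, the resident phagocytes of the airspaces, came from 3 untreated Car4fl/fl mice, whose alleles of the carbonic anhydrase 4 gene Car4 are flanked by loxP sites, and from 3 untreated Car4fl/fl-CD11cCre mice, which are floxed likewise and express Cre recombinase under CD11c (Itgax). All 6 libraries therefore carry floxed Car4, no group had the Cre with unfloxed Car4, and Cre itself and loss of Car4 cannot be told apart. CD11c is also made by dendritic cells and other myeloid cells, so the Cre need not be limited to alveolar macrophages. The sources used here give no age, sex or strain of the mice.

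Fatty acids that reach a macrophage from lipoproteins, surfactant or engulfed cells are carried in the cytosol by fatty acid binding proteins, and are either burned or stored as triglyceride in lipid droplets. The DGAT enzymes add the last acyl chain to make triglyceride, perilipins and CIDE proteins coat and fuse the droplets, and adipose triglyceride lipase, the product of Pnpla2, begins their breakdown. Alveolar macrophages recycle surfactant lipid, and their lipid programme depends on the nuclear receptor PPAR gamma, of which Fabp4, Plin2 and Cidec are known target genes.

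The libraries held 53824475 to 65443314 counts in genes, and a gene with 3 counts stood at 0.0465 to 0.0557 CPM (counts per 1000000, scaled by TMM factors). Car4 itself was at 499, 385 and 270.4 CPM in the Car4fl/fl libraries and at 40.2, 46.9 and 36.3 CPM in the Cre libraries, a log2 fold change of -3.23 ± 0.22 (SE; adjusted p 0.0047 by the quasi-likelihood test of edgeR). That call was lost without Car4fl/fl replicate 2 (adjusted p 0.0549, edgeR) and with robust dispersions (0.0719), while the log2 fold change lay between -3.43 and -2.99 in all 16 alternative settings. Of 15 alveolar macrophage markers all 15 were tested, 7 were above control and the median log2 fold change was -0.061. Their summed level was 25646 to 29057 CPM in the Car4fl/fl libraries and 31236 to 44803 CPM in the Cre libraries, most of it from Chil3, and without Chil3 it was 11223 to 11757 against 11778 to 12309 CPM. Marco, Itgax, Chil3, Mrc1 and Ear6 were above all controls in the 3 Cre libraries, 5 of 15 against 8.63% of all tested genes, and Siglecf and Cidec, itself one of the 10 genes, were below them, 2 of 15 against 9.22%. None of the 15 passed edgeR over all genes. DESeq2 called 4 of them higher (Marco, Itgax, Chil3 and Ear6), against 2.32% of its genes, and 1 lower (Siglecf), against 1.46%. Itgax is also the gene under which Cre is expressed, in the Cre group only, and the part of the transgene in its value was not tested. Of 11 interstitial macrophage markers 8 were above control, with a summed level of 7.80 to 11.7 CPM in the Car4fl/fl libraries and of 14.6, 46.0 and 84.5 CPM in Cre libraries 1, 2 and 3. Cre library 1 also stood apart in markers of alveolar type 2 cells, at 299 CPM against 231 to 253 CPM in the other libraries, and of endothelium, at 32.5 against 16.1 to 21.2 CPM. Of 8 monocyte markers 4 were above control, and their sum of 611 to 738 CPM in the Car4fl/fl and 489 to 591 CPM in the Cre libraries was mostly Nr4a1, without which it was 81.0 to 91.2 against 76.5 to 86.5 CPM. Of 8 neutrophil markers 6 were tested and above control, Ly6g was at 0 in all libraries, and their sum was 85.9 to 95.4 against 101 to 110.5 CPM, or 41.3 to 56.3 against 53.2 to 62.3 CPM without Csf3r. The sums of the markers of dendritic cells, airway epithelium, fibroblasts, lymphocytes and adipocytes overlapped between the groups. Adipocytes make several of the 10 genes at high levels, and their 8 markers summed to 14.1 to 18.3 CPM against 14.95 to 15.9 CPM, with Lep and Adrb3 at 0 in all libraries and Adipoq and Cfd at no more than 3 counts. In bulk RNA fewer cells of a type and less RNA per cell cannot be told apart.

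Promoter sequences from RefSeq (GRCm38.p6) were matched for 5 of the 10 genes by symbol: Fabp1, Plin2, Plin3, Cidec and Pnpla2. Windows of 250 bases before to 50 after each start were searched on both strands for the PPAR response element, a direct repeat of 2 AGGTCA half-sites with 1 free base between them, with at most 2 mismatches among its 12 named letters. The bases upstream of both the RefSeq start and the GENCODE gene start are shown for 4 genes, 5′ to 3′ on the gene's strand, with the matches in capitals. Fabp1 and Plin2 are shown because they hold a match, and Cidec and Pnpla2 because their values did not overlap between the genotypes. The upstream stretch shown for Fabp1 lies at chr6:71199629-71199826 (plus strand) and that for Plin2 at chr4:86670061-86670309 (minus). The stretch for Cidec lies at chr6:113435761-113436010 (minus) and that for Pnpla2 at chr7:141454938-141455187 (plus).
Fabp1: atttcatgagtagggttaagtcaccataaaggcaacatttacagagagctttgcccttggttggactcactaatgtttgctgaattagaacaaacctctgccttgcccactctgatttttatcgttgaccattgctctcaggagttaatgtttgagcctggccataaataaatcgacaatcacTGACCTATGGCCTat
Plin2: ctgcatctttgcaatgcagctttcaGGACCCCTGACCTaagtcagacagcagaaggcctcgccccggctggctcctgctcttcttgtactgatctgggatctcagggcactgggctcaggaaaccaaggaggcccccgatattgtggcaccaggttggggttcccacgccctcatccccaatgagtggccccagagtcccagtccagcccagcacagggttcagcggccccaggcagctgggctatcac
Cidec: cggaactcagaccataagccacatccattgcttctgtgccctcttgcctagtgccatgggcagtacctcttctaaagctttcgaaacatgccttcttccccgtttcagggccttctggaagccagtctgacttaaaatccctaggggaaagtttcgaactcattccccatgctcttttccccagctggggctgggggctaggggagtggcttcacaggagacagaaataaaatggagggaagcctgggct
Pnpla2: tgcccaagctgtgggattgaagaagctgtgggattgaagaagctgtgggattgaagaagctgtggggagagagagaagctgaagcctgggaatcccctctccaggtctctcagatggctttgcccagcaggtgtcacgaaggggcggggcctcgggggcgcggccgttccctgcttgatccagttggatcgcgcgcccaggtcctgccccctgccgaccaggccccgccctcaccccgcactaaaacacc

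The match in Fabp1 read AGGCCATAGGTCA on the opposite strand, 67 to 55 bases before the RefSeq start, with 1 mismatch. The match in Plin2 read AGGTCAGGGGTCC, also on the opposite strand, 225 to 213 bases before the start, with 2 mismatches. Among all 32851 promoter windows of this length, 0.554% held a match with at most 1 mismatch and 3.86% with at most 2. The windows of Plin3, Cidec and Pnpla2 held none at this limit. A match describes letters in this window and is not a measured binding site.

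None of the 10 genes passed the genotype test over all genes, against 0.0066% of 15147 tested genes called higher and 0.0066% called lower in the Cre libraries, 0.0132% in either direction (edgeR, adjusted p under 0.05). All 10 passed the filter on low counts, each with at least 2625 counts in every library. At an unadjusted edgeR p under 0.05, Fabp5 and Pnpla2 were above control, against 6.54% of all tested genes, and Lpl and Cidec below it, against 6.28%, which makes 4 of 10 against 12.8%. DESeq2 called 0 of the 10, against 2.32% of its genes called higher and 1.46% called lower, 3.78% in all. Without a filter on low counts edgeR called Fabp5 alone, against 1.23% of genes called higher, 0.665% called lower and 1.9% in all. Values of the genotypes did not overlap for Fabp5 and Pnpla2, which were higher in all 3 Cre libraries, against 8.63% of tested genes, and for Cidec, which was lower in all 3, against 9.22%. That is 3 of 10 genes against 17.9% in either direction. The median log2 fold change was 0.033 for the 10 genes and -0.0019 over all tested genes, and 5 of 10 were above control against 49.4% of all tested genes.

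**Figure D1:**
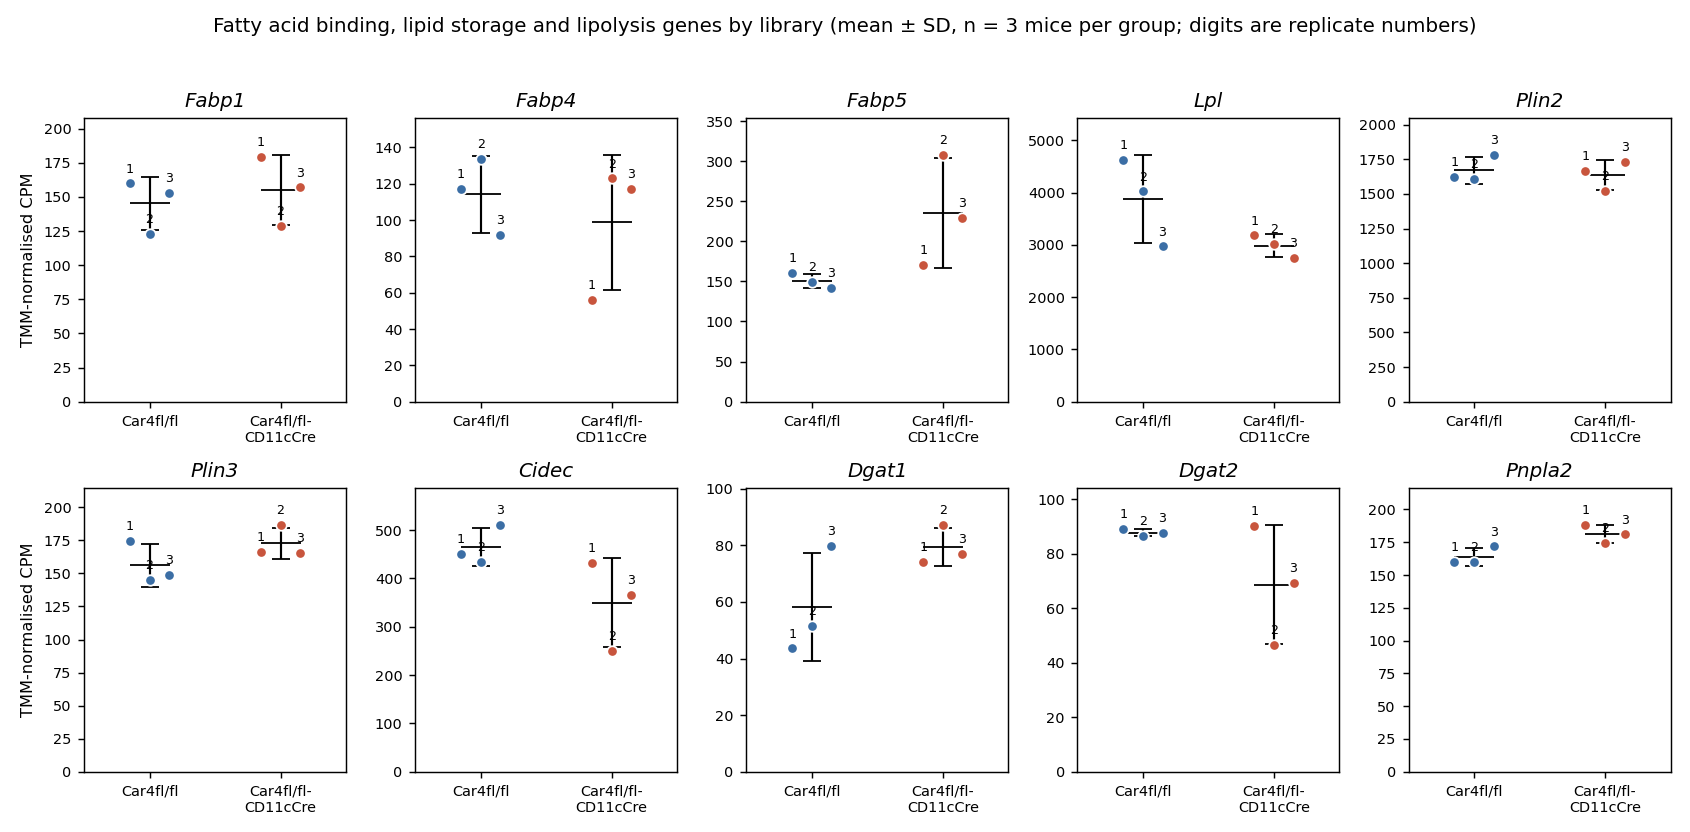
TMM-normalised CPM (vertical axes, from 0) of the 10 genes in each library, with blue points for Car4fl/fl, red points for Car4fl/fl-CD11cCre, bars for mean ± SD of 3 mice and digits for replicate numbers. All 3 red points lie above the blue ones for Fabp5 and Pnpla2 and below them for Cidec, and for the other 7 genes the groups overlap.

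Fabp5, the epidermal-type fatty acid binding protein that macrophages also make, had the largest difference of the 10 genes. It was at 160.3, 149 and 142 CPM in the Car4fl/fl libraries and at 171, 307 and 229 CPM in Cre libraries 1, 2 and 3. Cre library 1 lay just above the highest control, whereas Cre libraries 2 and 3 lay far above all controls. The means were 150.4 ± 9.27 and 236 ± 68.6 CPM (SD, n = 3), a ratio of 1.57. On the log2 scale the difference was 0.65 ± 0.19 (SE; unadjusted p 0.00836 and adjusted p 0.209, edgeR), so Fabp5 did not pass. Without Cre replicate 1 it passed, at 0.83 (adjusted p 0.0229, edgeR), and without Cre replicate 2 the log2 fold change was 0.41 (adjusted p 0.335). Among the fits that leave out a library, that without Cre replicate 1 also called the most genes higher over all genes. The interstitial macrophage markers were also lowest in Cre library 1 among the Cre libraries, but highest in Cre library 3, where Fabp5 was not highest, and their part in the result was not tested.

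Fabp4, the adipocyte-type binding protein and a classical PPAR gamma target, was at 117, 134 and 91.8 CPM in the Car4fl/fl libraries and at 56.2, 123 and 117 CPM in the Cre libraries. Only Cre library 1 lay below the controls, at 1.02 on the log2 scale under their mean, and Cre libraries 2 and 3 lay within their range. The log2 fold change was -0.21 ± 0.28 (SE; adjusted p 0.821, edgeR), and without Cre replicate 1 it was 0.066 (edgeR). Fabp4 was lowest in Cre library 1, whereas the markers of endothelium, a cell type that also makes Fabp4, were highest there, at 32.5 CPM. Their part in the value of Fabp4 was not tested. Fabp1, the liver-type binding protein, was at 159.9, 123 and 153 CPM against 179.5, 129 and 157 CPM. The groups overlapped throughout, and the log2 fold change of Fabp1 was 0.093 ± 0.14 (SE; adjusted p 0.843, edgeR).

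Fabp5 and Fabp4 are neighbours on chromosome 3 of GRCm38. Fabp5 (ENSMUSG00000027533) spans 10012548 to 10016607 on the plus strand and Fabp4 (ENSMUSG00000062515) 10204088 to 10208576 on the minus strand, with 187480 bases between them. Fabp9 and Pmp2, further binding protein genes that lie between them, had 0 to 5 counts and 0 counts in the libraries. The ratio of Fabp5 to Fabp4 counts, taken after their values were seen and therefore not tested, was 1.37, 1.12 and 1.55 in the Car4fl/fl libraries and 3.04, 2.501 and 1.96 in the Cre libraries. The high ratio of Cre library 1 came with low Fabp4 and those of Cre libraries 2 and 3 with high Fabp5. Fabp5 has near-identical copies, which makes its count less certain. The principal Fabp5 transcript aligned at 93.6 to 98.3% identity over 336 to 409 bases with Gm6166, Gm14328, Fabp5l2, Gm6100 and Gm13998, each with 0 to 43 counts a library against at least 8067 for Fabp5.

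Lpl, which encodes lipoprotein lipase, the secreted enzyme that frees fatty acids from triglyceride-rich lipoproteins, had the most counts of the 10. It was at 4632, 4024 and 2969.5 CPM in the Car4fl/fl libraries and at 3181, 3025 and 2758 CPM in the Cre libraries. Control library 3 lay within the range of the Cre libraries and the other controls above it. Between the genotypes the log2 fold change was -0.38 ± 0.15 (SE; unadjusted p 0.0397 and adjusted p 0.365, edgeR). It was -0.54 (adjusted p 0.107) without Car4fl/fl replicate 3 and -0.23 (adjusted p 0.664) without Car4fl/fl replicate 1. Lpl (ENSMUSG00000015568) maps to the plus strand of chromosome 8, 68880491 to 68907448.

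Of the droplet proteins, Plin2, the perilipin that coats droplets in most cell types, had the smallest difference of the 10. It was at 1622, 1608 and 1779 CPM in the Car4fl/fl libraries and at 1667, 1519.6 and 1729.6 CPM in the Cre libraries, with a log2 fold change of -0.027 ± 0.075 (SE; adjusted p 0.923, edgeR). A copy of Plin2, Gm12551, aligned at 96.1% identity over 259 bases and had 20 to 141 counts a library against at least 93117 for Plin2. Plin3, a perilipin that moves from the cytosol to new droplets, was at 174, 145 and 149 CPM against 167, 186 and 166 CPM, with overlapping groups and a log2 fold change of 0.15 ± 0.085 (SE; adjusted p 0.532, edgeR). Cidec, whose product fuses droplets into larger ones, was at 451, 435 and 510.0 CPM in the Car4fl/fl libraries and at 432, 251 and 365 CPM in the Cre libraries. Cre library 1 was close to the lowest control, and Cre library 2 was the lowest of all. The log2 fold change of Cidec was -0.41 ± 0.18 (SE; unadjusted p 0.0492 and adjusted p 0.388, edgeR). Without Cre replicate 2 it was -0.22 (adjusted p 0.548), and without Cre replicate 1 it was -0.60 (adjusted p 0.132). Cidec (ENSMUSG00000030278) lies on chromosome 6 from 113424634 to 113435760, Plin2 (ENSMUSG00000028494) on chromosome 4 from 86648386 to 86670060 and Plin3 (ENSMUSG00000024197) on chromosome 17 from 56277476 to 56292873, all on the minus strand.

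**Figure D2:**
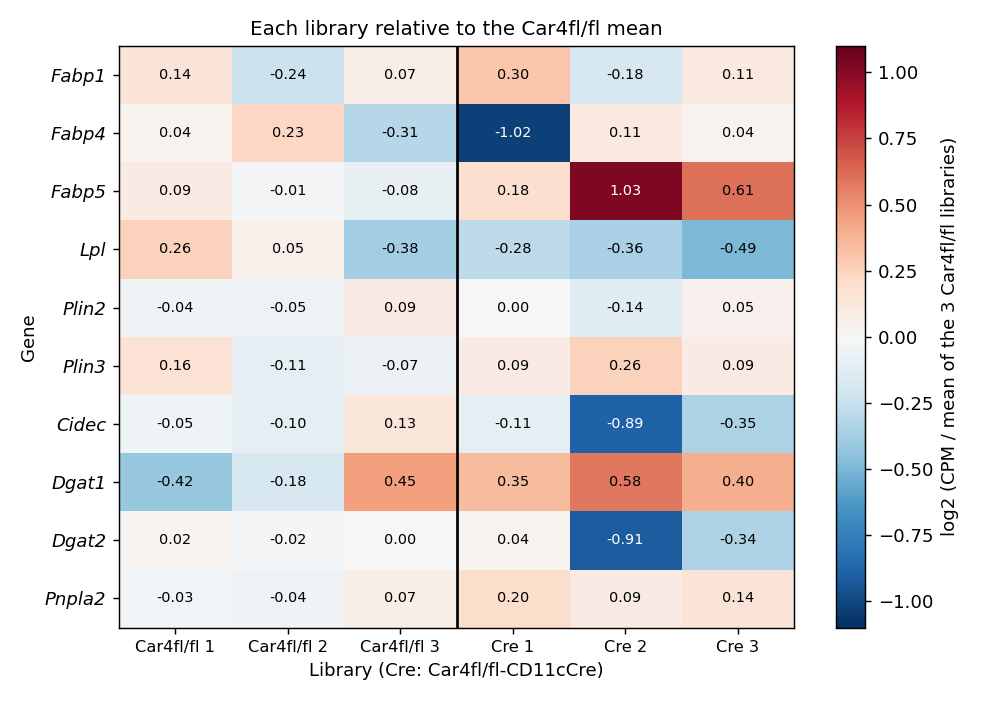
Heat map of log2 of each library's CPM over the mean of the 3 Car4fl/fl libraries, with the 10 genes as rows and the 6 libraries as columns, Cre libraries right of the line. Cre library 2 holds the highest Fabp5 (1.03) and Dgat1 (0.58) and the lowest Cidec (-0.89) and Dgat2 (-0.91), and Cre library 1 the lowest Fabp4 (-1.02).

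The 2 triglyceride-forming enzymes differed in opposite directions without passing the test. Dgat1, the acyltransferase of the endoplasmic reticulum that acts on fatty acids from outside the cell, was at 43.6, 51.5 and 79.8 CPM in the Car4fl/fl libraries and at 74.3, 87.1 and 77.1 CPM in the Cre libraries. Control library 3 lay among the Cre libraries. The difference was 0.45 ± 0.20 on the log2 scale (SE; unadjusted p 0.0567 and adjusted p 0.408, edgeR). Without Car4fl/fl replicate 3 Dgat1 passed, at 0.74 (adjusted p 0.0439, edgeR), and without Car4fl/fl replicate 1 it was 0.28 (adjusted p 0.672). Dgat2, the unrelated enzyme linked to newly made fatty acids and to droplets, was at 89.2, 86.6 and 87.7 CPM in the Car4fl/fl libraries and at 90.1, 46.6 and 69.4 CPM in the Cre libraries. Cre library 1 lay just above the controls and Cre libraries 2 and 3 lay below them. The log2 fold change of Dgat2 was -0.35 ± 0.20 (SE; adjusted p 0.526, edgeR), -0.14 without Cre replicate 2 and -0.61 without Cre replicate 1. The ratio of Dgat1 to Dgat2 counts, also taken after their values were seen, was 0.489, 0.595 and 0.910 in the Car4fl/fl libraries and 0.824, 1.87 and 1.11 in the Cre libraries, which overlap. Dgat1 (ENSMUSG00000022555) lies on chromosome 15 from 76502015 to 76511953 and Dgat2 (ENSMUSG00000030747) on chromosome 7 from 99153658 to 99182719, both on the minus strand.

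Pnpla2, which encodes adipose triglyceride lipase, was slightly higher in every Cre library. It was at 160.3, 159.8 and 172 CPM in the Car4fl/fl libraries and at 188, 174 and 181 CPM in the Cre libraries, with means of 164 ± 6.82 and 181 ± 6.79 CPM (SD, n = 3). Its log2 fold change was 0.14 ± 0.055 (SE; unadjusted p 0.033 and adjusted p 0.345, edgeR), and leaving out 1 library at a time gave 0.11 to 0.17. Pnpla2 (ENSMUSG00000025509) and Fabp1 (ENSMUSG00000054422) map to the plus strands of chromosome 7, 141455198 to 141460743, and chromosome 6, 71199827 to 71205023. In the annotation none of the 10 genes overlaps another gene on either strand.

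Per kilobase of transcript, Plin2 and Lpl had the highest means of the 10 genes in both genotypes, although by exon union the libraries of Lpl and Fabp1 overlapped in both, and in the Cre libraries the means were 285 ± 20.4 and 280.4 ± 46.1 CPM per kb (SD, n = 3). With the union of all annotated exons as the length, Car4fl/fl means ran from 476 CPM per kb for Plin2 and 370 for Lpl through 263 for Fabp1 and 251 for Cidec to 54.3 for Pnpla2, 42.2 for Fabp5, 41.2 for Plin3, 28.5 for Dgat2, 25.4 for Fabp4 and 19.1 for Dgat1. In this order the libraries of Lpl and Fabp1, Fabp1 and Cidec, Fabp5 and Plin3, Dgat2 and Fabp4, and Fabp4 and Dgat1 overlapped, and those of the other neighbours did not. The exon unions of Fabp4 (4489 bases) and Fabp5 (3567 bases) take in introns kept by other annotated transcripts, whereas their principal coding transcripts have 896 and 987 bases. By the length of the principal transcript, a setting added after seeing these lengths, the Car4fl/fl means were 942 ± 204 CPM per kb for Lpl, 885 ± 50.3 for Plin2, 271 ± 23.0 for Cidec, 263 ± 35.4 for Fabp1, 152 ± 9.39 for Fabp5 and 127 ± 23.5 for Fabp4 (SD, n = 3). Pnpla2 followed at 91.1 ± 3.79, Plin3 at 42.8 ± 4.41, Dgat2 at 38.8 ± 0.568 and Dgat1 at 30.9 ± 10.1 CPM per kb. In that order the libraries of Lpl and Plin2, Cidec and Fabp1, Fabp5 and Fabp4, and Dgat2 and Dgat1 overlapped, and those of the other neighbours did not. In the Cre libraries Fabp5, at 239 ± 69.5 CPM per kb, stood between Fabp1 (280.4 ± 46.1) and Cidec (203 ± 53.4), and its libraries overlapped with those of both.

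**Figure D3:**
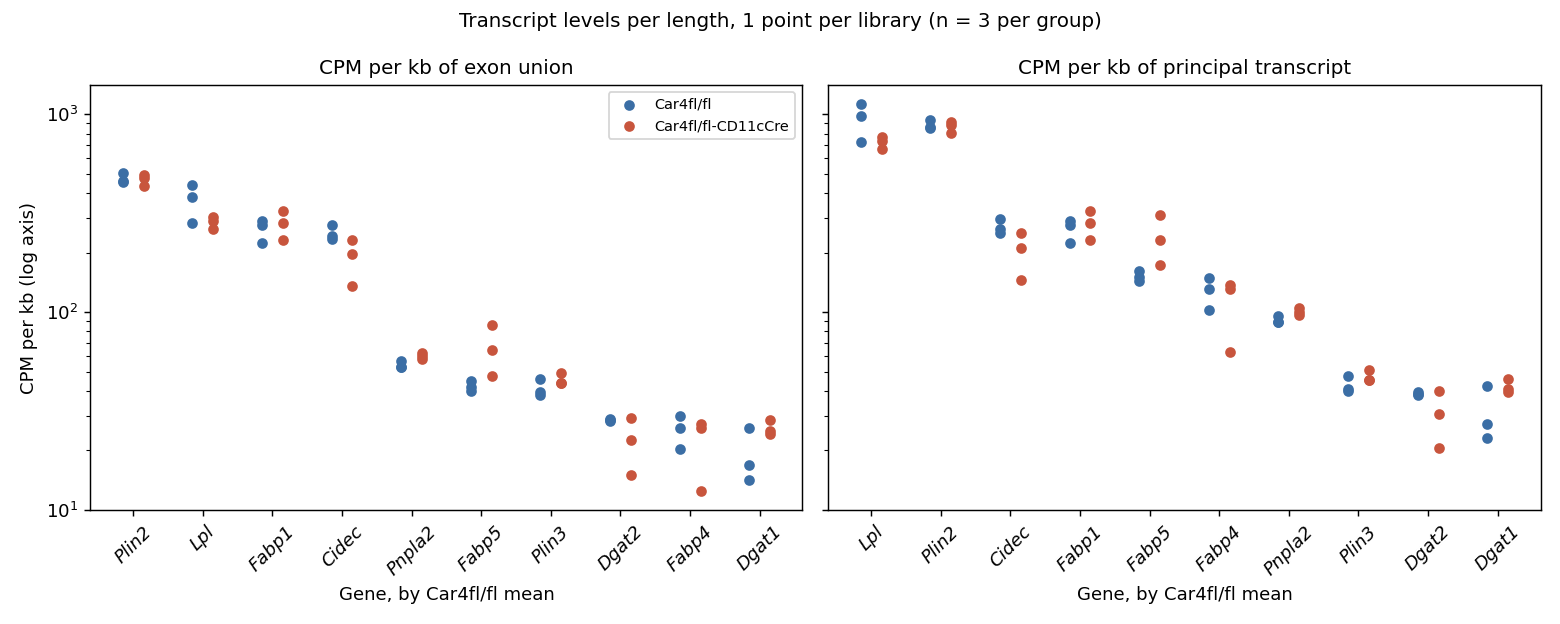
CPM per kilobase (log axis) of the 10 genes in each library, per exon union on the left and per principal transcript on the right, ordered by the Car4fl/fl mean, blue for Car4fl/fl and red for Car4fl/fl-CD11cCre. Fabp4 moves from the ninth to the sixth place between the panels, from 25.4 to 127 CPM per kb.

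The other genes of the pathway, in 8 lists, numbered 83 in the table, of which 60 were tested. None passed edgeR over all genes in either direction. At an unadjusted p under 0.05 there were 6 higher and 3 lower, 9 of 60 against 12.8% of all tested genes (6.54% higher and 6.28% lower). Of the 60 genes 30 were above control, against 49.4% of all tested genes, and their median log2 fold change was 0.0035. DESeq2 called 3 higher (Cd36, Acsl3 and Fabp7) and 1 lower (G0s2), against 2.32% of genes called higher and 1.46% called lower by that tool. Their values did not overlap between the groups for 5 higher and 6 lower, 11 of 60 against 17.9% of all tested genes.

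Uptake and activation of fatty acids was the list with the most genes above control, 7 of 8 tested against 49.4% of all tested genes, with a median log2 fold change of 0.16. Of the 8 genes 3 were higher at an unadjusted p under 0.05, against 6.54% of all tested genes. The scavenger receptor and fatty acid translocase gene Cd36 was at 486, 449.9 and 449.9 CPM in the Car4fl/fl libraries and at 591, 536 and 667 CPM in the Cre libraries. All Cre libraries lay above all controls, and the log2 fold change was 0.37 ± 0.086 (SE; adjusted p 0.161 by edgeR and 0.00201 by DESeq2). Acsl3, an acyl-CoA synthetase of nascent droplets, was at 4.45, 4.16 and 4.35 CPM against 5.48, 6.18 and 7.82 CPM, a log2 fold change of 0.59 ± 0.15 (SE; adjusted p 0.184 by edgeR and 0.0223 by DESeq2). The transporter gene Slc27a1 was at 63.7 to 72.6 CPM against 72.0 to 82.9 CPM, with overlapping groups and an adjusted p of 0.286 (edgeR). Slc27a6, named after its values were seen, was too low to be tested in the fit with the filter, with 0, 1 and 1 counts in the Car4fl/fl libraries and 7, 50 and 74 in the Cre libraries.

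**Figure D4:**
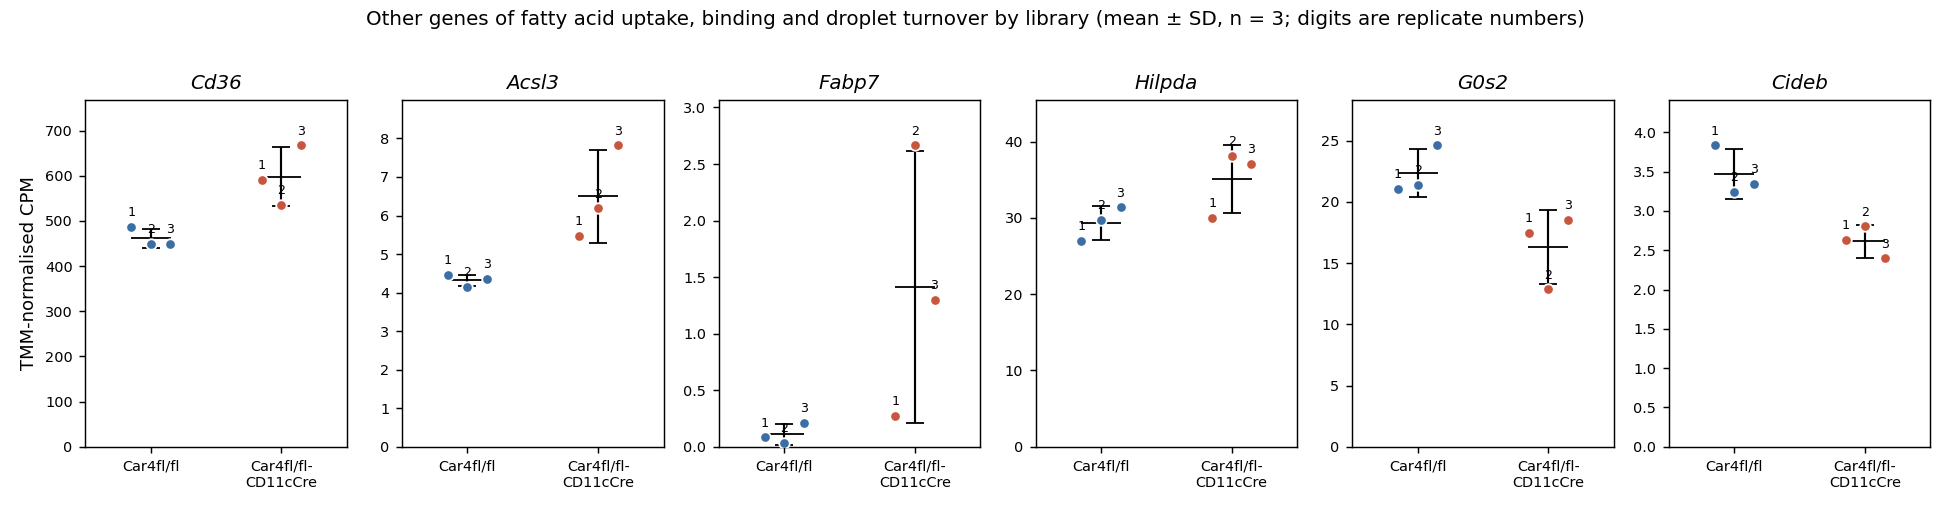
TMM-normalised CPM (vertical axes, from 0) of 6 other pathway genes in each library, blue for Car4fl/fl, red for Car4fl/fl-CD11cCre, bars for mean ± SD of 3 mice and digits for replicate numbers. Cd36, Acsl3 and Fabp7 have all red points above the blue ones, G0s2 and Cideb have them below, and Hilpda overlaps.

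Among the remaining fatty acid binding proteins only Fabp7, the brain-type member, was tested, and Fabp2, Fabp3, Fabp6, Fabp9, Fabp12 and Pmp2 were each below the filter. Fabp7 had 5, 2 and 12 counts in the Car4fl/fl libraries and 16, 172 and 70 counts in Cre libraries 1, 2 and 3. Cre libraries 2 and 3 held most of its counts, at 2.67 and 1.30 CPM. The fitted log2 fold change was 3.69 ± 0.90 (SE; adjusted p 0.173 by edgeR and 0.000422 by DESeq2), and without Cre replicate 1 the adjusted p was 0.0193 (edgeR). That fit called the most genes higher among those that leave out a library. The interstitial macrophage markers were likewise higher in Cre libraries 2 and 3 than in Cre library 1, but highest in Cre library 3, where Fabp7 was not highest and Slc27a6 was, and their part in the values of Fabp7 and Slc27a6 was not tested.

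Of the genes that set the activity of the lipase encoded by Pnpla2, none passed edgeR. G0s2, which encodes an inhibitor of it, was at 21.1, 21.4 and 24.6 CPM in the Car4fl/fl libraries and at 17.5, 12.9 and 18.5 CPM in the Cre libraries, lower in all 3, with a log2 fold change of -0.46 ± 0.14 (SE; adjusted p 0.236 by edgeR and 0.0474 by DESeq2). Hilpda, which encodes another inhibitor of that lipase and was named after its values were seen, was at 26.9, 29.8 and 31.4 CPM against 30.0, 38.1 and 37.1 CPM. Its groups overlapped, with a log2 fold change of 0.26 ± 0.10 (SE; adjusted p 0.351, edgeR). The co-activator gene Abhd5 was at 166 to 191 CPM against 146 to 166 CPM, with an adjusted p of 0.490 (edgeR). Of the 9 tested genes of lipolysis and lipophagy 5 were above control, and the lysosomal acid lipase gene Lipa was the most abundant, at 1029 to 1258 CPM against 1045 to 1433 CPM.

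Of 11 tested genes of other droplet proteins 6 were above control. Cideb, a relative of Cidec best known from liver, was at 3.83, 3.24 and 3.34 CPM against 2.64, 2.80 and 2.40 CPM, lower in all Cre libraries, with a log2 fold change of -0.41 ± 0.14 (SE; adjusted p 0.297, edgeR). Spg20, which encodes the droplet-turnover protein spartin, was at 18.7, 17.8 and 18.7 CPM against 19.9, 20.8 and 20.7 CPM (adjusted p 0.351, edgeR). The most abundant member, Hsd17b11, was at 170.2 to 182 CPM against 170.5 to 180.3 CPM.

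Upstream of the DGAT enzymes 9 of 11 tested genes of glycerolipid synthesis were below control, while 49.4% of all tested genes were above it. The median log2 fold change of the list was -0.025, and no gene had an unadjusted edgeR p under 0.05. Gpat2 had the largest difference, at -0.60 ± 0.80 (SE; adjusted p 0.826, edgeR), with only 4 to 46 counts a library. Values did not overlap between the groups for 3 of the 11 genes, all lower, against 9.22% of all tested genes. The acyltransferase gene Agpat2 and the lipin gene Lpin2, which act in turn to make diacylglycerol, had log2 fold changes of -0.20 ± 0.092 and -0.15 ± 0.071 (SE), with adjusted p of 0.429 and 0.442 (edgeR). Their relative Lpin1, the most abundant of the list, was at 337 to 381 CPM against 305 to 396 CPM. Among 8 tested cofactors of lipoprotein lipase 2 were above control and none had an unadjusted p under 0.05, and the inhibitor gene Angptl4 was at 192 to 279 CPM against 203 to 239 CPM. Gpihbp1, the endothelial anchor of the lipase, was at 0.531 to 0.549 CPM against 0.372 to 0.744 CPM. The maturation factor gene Lmf1 was at 20.8 to 20.9 CPM against 19.6 to 23.3 CPM.

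For storage and release of sterol esters, 2 of 4 tested genes were above control. The hydrolase gene Nceh1 was at 1078, 1074 and 1055 CPM in the Car4fl/fl libraries and at 983, 1004 and 919 CPM in the Cre libraries, lower in all 3, with a log2 fold change of -0.14 ± 0.058 (SE; adjusted p 0.369, edgeR). The acyltransferase gene Soat1 was at 338 to 361 CPM against 361 to 404 CPM, with an adjusted p of 0.476 (edgeR). Of 8 tested genes of PPAR receptors and their partners 5 were above control and none had an unadjusted p under 0.05. Pparg was at 274, 251 and 277 CPM in the Car4fl/fl libraries and at 253, 255 and 260.5 CPM in the Cre libraries, all within the range of the controls, with a log2 fold change of -0.061 ± 0.056 (SE; adjusted p 0.727, edgeR). The partner gene Rxra was at 349 to 405 CPM against 321 to 366 CPM, with a log2 fold change of -0.11 ± 0.079 (SE; adjusted p 0.631, edgeR).

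**Figure D5:**
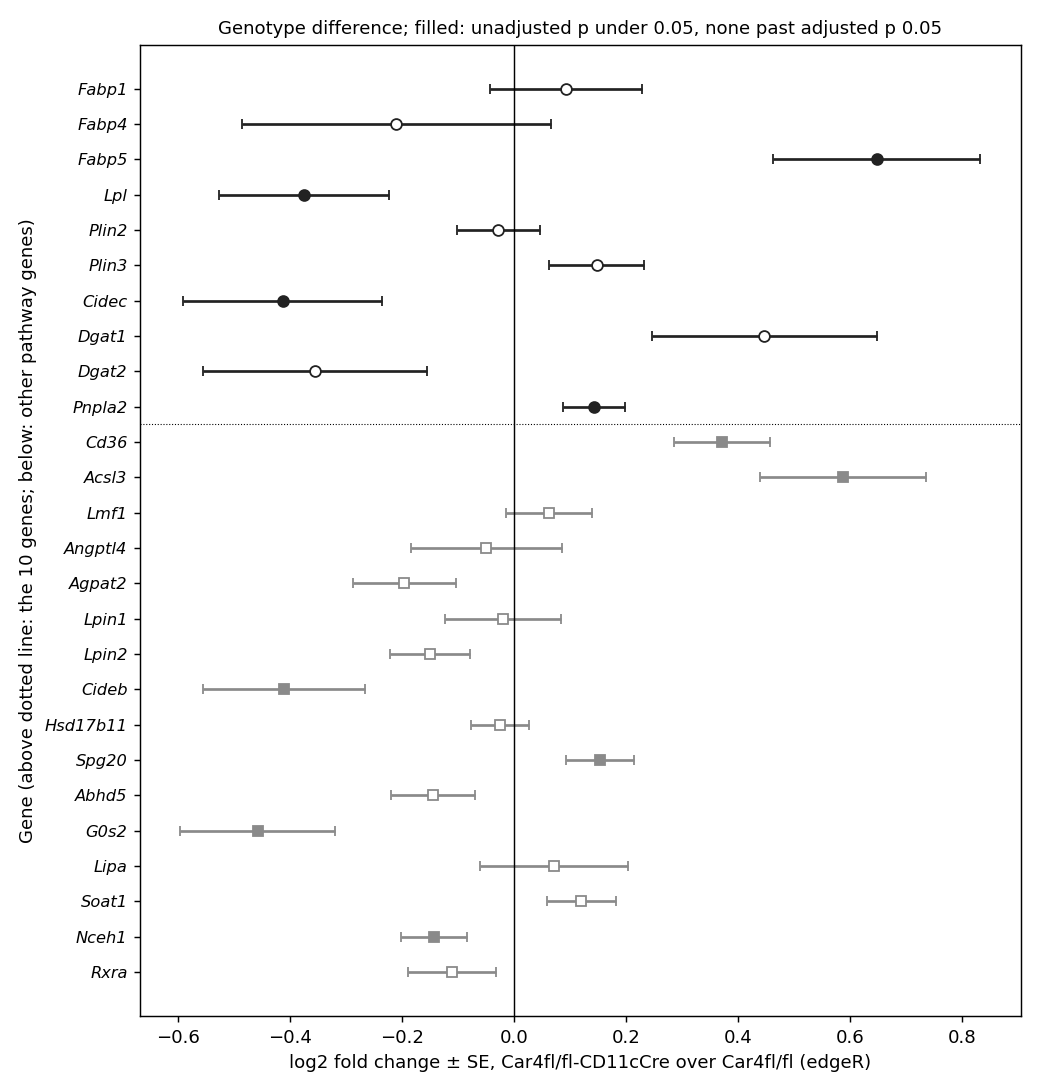
Log2 fold change ± SE (horizontal axis, Car4fl/fl-CD11cCre over Car4fl/fl) of the 10 genes (circles) and of other pathway genes named by the rule (squares). Values are from edgeR, and symbols are filled where the unadjusted p is under 0.05. Fabp7 is left out because its value of 3.69 lies off the axis. Slc27a1, Hilpda, Gpihbp1, Gpat2 and Pparg, which were named in addition, are not shown. Fabp5 lies highest, at 0.65, and G0s2 (-0.46) and Cidec (-0.41) lie lowest.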

How the data were processed

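The 6 libraries were made from polyadenylated RNA purified with an RNeasy Plus Micro column kit, per the labels' protocols. The authors deposited raw whole-number counts for each gene. Among the tools that the submitters' processing notes list, without roles, are STAR 2.6.1 and featureCounts 1.6.4, with the build GRCm38. Neither the annotation nor the use of strand in counting is given in the sources used here. In R 4.3.3, edgeR 4.0.16 was run on all 6 libraries with filterByExpr (minimum count 10, 15147 genes left), TMM factors, glmQLFit and glmQLFTest (a two-sided test), and p-values were adjusted by Benjamini and Hochberg over the genes tested, with 0.05 as threshold. SE is the absolute log2 fold change over the square root of F. DESeq2 1.42.0, limma-voom (limma 3.58.1), other scalings, filters and dispersion settings, a replicate block and leaving out each library were alternatives, and the principal transcript length was added after seeing the data. The code was tested on simulated counts.

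The 10 genes and all lists were chosen with earlier results of these data known. From each of the 8 further lists the text names genes past the threshold, or otherwise up to 2 tested genes of at least 1 CPM on average with the smallest p and the most abundant gene. Some genes that this rule names are not reported here. Slc27a1, Slc27a6, Hilpda, Gpihbp1, Gpat2, Pparg and the markers were named in addition after their values were seen. Lengths and coordinates came from GENCODE M21, which held 45143 of the 46078 identifiers. Of the list symbols 4 were found under other names through RefSeq synonyms, and Ldaf1 is not analysed here. Copies were searched with blastn 2.17.0 (at least 90% identity over 200 bases).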

Additional observations from a re-analysis of the deposited data

How the results depend on the processing

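Of 160 comparisons of the 10 genes with 16 alternative settings, 152 kept their direction and their side of the threshold, 3 became called and 5 changed sign. Fabp5 was called without a low-count filter (0.65, adjusted p 0.0284) and without Car4fl/fl-CD11cCre replicate 1, and Dgat1 without Car4fl/fl replicate 3. The sign changed for Fabp1 without Car4fl/fl replicate 2 or Cre replicate 1 (range over the 6 fits that leave out a library -0.032 to 0.21), Fabp4 without Cre replicate 1 (-0.40 to 0.066), Plin2 without Car4fl/fl replicate 3 or Cre replicate 2 (-0.067 to 0.023), Angptl4 without the same libraries (-0.16 to 0.12), Lpin1 without Car4fl/fl replicate 2 or 3 or Cre replicate 2 (-0.093 to 0.087) and Lipa without Cre replicate 2 (-0.086 to 0.16). The number of the 10 genes called higher was 0, and 1 without a low-count filter and 0 to 1 over the fits that leave out a library. No fit called any of the 10 lower. Over all genes 1 was called in each direction, against 344 higher and 217 lower by DESeq2, 340 and 183 without a low-count filter, and 1 and 0 with robust dispersions, where Car4 was not called. Leaving out single libraries gave 1 to 249 higher, with the most without Cre replicate 1, and 0 to 52 lower, with the most without Car4fl/fl replicate 3. Of the companion genes DESeq2 called 3 higher and 1 lower, against 2.32% and 1.46% of its genes. Without a low-count filter 3 were called higher (Cd36, Fabp7 and Slc27a6), against 1.23% of genes. Slc27a6 was not tested in the fit with the filter. Fits without single libraries called 0 to 2 higher. With the replicate number as a block 8 genes were called higher and 2 lower and none of the 10, with Fabp5 at 0.61 (adjusted p 0.302). Same-numbered libraries had correlations of deviations of -0.045, -0.20 and 0.033, against -0.20 to 0.24 for differently numbered ones. With 3 libraries a group these values cannot decide whether the numbers pair the mice. The cause of these changes was not tested. Counting error is small for the 10 genes at these depths, and the number of mice limits the precision.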
